A study of Homo sapiens with 8 samples.

Results

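Stretches of the genome that were neither clearly methylated nor clearly unmethylated in the first cultures analysed are described here. The cells are HUES64, a human embryonic stem cell line in wide use. The genotype label of all 8 libraries reads "DMNT3A/3B knockout", and the libraries came from passages 6, 7, 8, 11, 13, 17, 27 and 28, with 1 library at each passage and no replicate library. CpG methylation was measured by reduced representation bisulfite sequencing, in which restriction fragments rich in CpGs are treated with bisulfite and sequenced. Cells without the knockouts were not analysed here. Nothing in the labels ties the passages to a common culture or clone, so each p-value below reflects only how closely these libraries followed a trend, and that scatter may be technical.

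The genome was cut into tiles of 1000 bases. A CpG was kept if it had at least 5 reads in every library, and a tile needed 3 such CpGs. Of 105631 autosomal tiles that met this, 2317 held under 35 listed CpG positions and had a level between 40 and 60% in each of passages 6, 7 and 8. The level of a tile is the percentage of methylated reads summed over its kept CpGs. The levels at passages 6 to 8 chose the tiles and are given as a description, while passages 11, 13, 17, 27 and 28 were not used in the choice. The 2317 tiles held 12805 kept CpGs, with a median of 5 per tile and a range of 3 to 30, and a median of 8 listed CpG positions. The median tile had 119 reads at passage 6, and 55 to 78 in each later library. These are summed over its CpGs, so a molecule read at several CpGs counts at each. Taken as independent, such counts give a tile at 50% an SD of 4.58 points at passage 6 and of up to 6.74 points elsewhere. Shared molecules make these SDs too small.

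DNMT3A and DNMT3B place methyl groups on unmethylated DNA, and DNMT1 restores methylation on the daughter strand when DNA is copied. In embryonic stem cells without DNMT3A and DNMT3B, methylation that is not copied at a division is not put back by those enzymes. An intermediate level over a population can come from CpGs that are each methylated in some cells or on 1 allele, as at imprinted regions. It can also come from methylated and unmethylated CpGs within the same stretch.

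Both kinds are visible in the promoter sequences below, shown because their tiles kept or lost the band. Each is the run of 250 bases before a gene's start, 5′ to 3′ on the gene's strand, from RefSeq (GRCh38.p14). Capitals mark the CpGs measured in the tile. The place of each in hg19, the build of the deposited positions, was found from the spacing of the listed CpGs and is chr9:17134788-17135037 (plus strand) for CNTLN, chr6:28583980-28584229 (minus strand) for SCAND3, chr7:4174470-4174719 (minus strand) for LOC105375131 and chr17:80192525-80192774 (plus strand) for SLC16A3.
CNTLN: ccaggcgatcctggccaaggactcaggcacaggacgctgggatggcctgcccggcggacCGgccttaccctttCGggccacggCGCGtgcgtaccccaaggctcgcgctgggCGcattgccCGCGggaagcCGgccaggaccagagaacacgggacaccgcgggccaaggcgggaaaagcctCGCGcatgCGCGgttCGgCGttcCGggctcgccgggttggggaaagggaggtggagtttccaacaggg
SCAND3: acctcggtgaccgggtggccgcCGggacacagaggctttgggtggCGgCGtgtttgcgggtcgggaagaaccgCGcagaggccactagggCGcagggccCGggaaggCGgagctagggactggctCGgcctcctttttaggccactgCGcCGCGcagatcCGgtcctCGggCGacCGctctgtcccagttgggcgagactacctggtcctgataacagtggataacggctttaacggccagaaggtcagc
LOC105375131: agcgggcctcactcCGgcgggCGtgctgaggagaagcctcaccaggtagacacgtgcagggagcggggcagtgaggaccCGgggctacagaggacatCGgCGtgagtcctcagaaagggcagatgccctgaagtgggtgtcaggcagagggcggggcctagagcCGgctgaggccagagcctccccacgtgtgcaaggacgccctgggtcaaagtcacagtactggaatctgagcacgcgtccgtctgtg
SLC16A3: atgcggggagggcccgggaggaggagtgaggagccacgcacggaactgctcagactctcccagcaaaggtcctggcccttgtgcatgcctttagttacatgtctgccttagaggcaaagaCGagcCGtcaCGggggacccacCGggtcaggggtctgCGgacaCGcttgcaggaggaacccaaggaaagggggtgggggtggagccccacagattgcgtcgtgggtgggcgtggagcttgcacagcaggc
CNTLN encodes a centrosomal protein. The 15 CpGs marked in its promoter lay between 30.8 and 51.2% over the pooled reads of passages 6 to 8 and between 30.8 and 53.8% over those of passages 27 and 28. In the SCAND3 promoter, 15 CpGs lay between 34.5 and 57.5% at the start and between 0 and 15% at the end. SCAND3 encodes a protein with a domain derived from a transposase. The 6 CpGs marked in the LOC105375131 promoter ranged from 2.67 to 87.8% at the start, and every one had 0 methylated reads at passages 27 and 28. SLC16A3 encodes a transporter that exports lactate, and its 6 marked CpGs fell from a mean of 38.4% to 7.59%.

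The tiles as a group lost methylation at every step between the passages analysed. Their mean level was 50.7, 50.3 and 49.8% in the 3 libraries that chose them. In the 5 later libraries it was 43.2, 43.0, 37.7, 26.1 and 24.3%, in order of passage. The SD over tiles was 5.36 points at passage 6, where the choice of tiles sets it, 13.1 at passage 11 and 18.9 at passage 28. Over the 5 libraries not used in the choice, the mean fell by 1.15 ± 0.0554 points per passage (slope ± SE). In the same 5 libraries the share of tiles in the band was 52.9, 48.5, 39.9, 22.6 and 20.5%. At passage 11, 877 tiles lay under 40% and 214 over 60%.

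**Figure D1:**
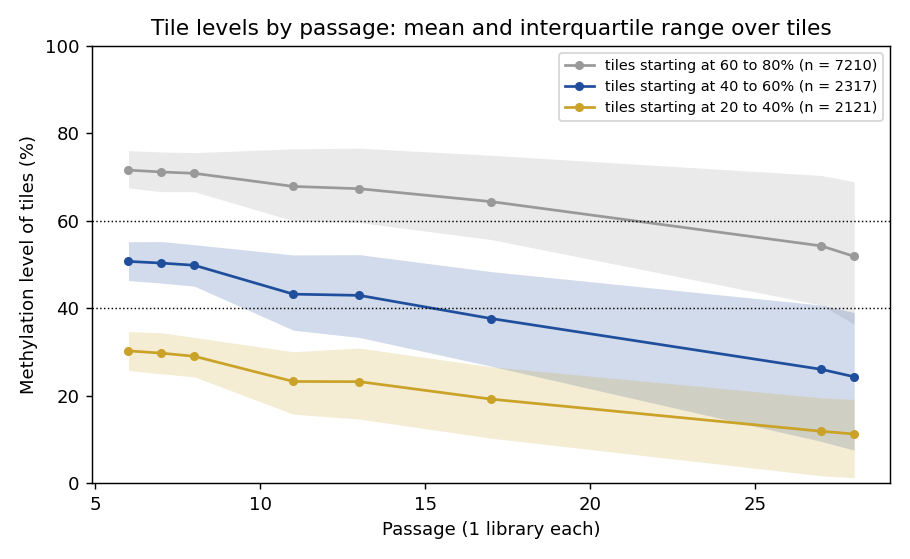
Mean methylation level of tiles (y axis, %) by passage (x axis, 1 library each), with shaded interquartile ranges over tiles, for tiles starting at 40 to 60% and the bands on either side of it. The mean of the 2317 tiles fell from 50.7% at passage 6 to 24.3% at passage 28, and their range widened until it overlapped that of the lower band.

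Only a minority stayed intermediate. Of the 2317 tiles, 302 (13.0%, 95% Wilson interval 11.7 to 14.5%) lay between 40 and 60% at both passages 27 and 28, whereas 4.98% of all 94028 eligible tiles with under 35 listed positions did so. The interval covers the number of tiles only, since tiles of a library are not replicates. Lying in this band late was not particular to tiles that started in it. With each passage taken alone, 22.6 and 20.5% of the 2317 tiles lay in it at passages 27 and 28. For tiles starting at 60 to 80% the shares were 27.8 and 27.8%, and for those starting at 20 to 40% they were 2.40 and 1.98%. At both late passages 1577 tiles (68.1%) lay below the band and 28 above it, and the other 410 lay in it at 1 of the passages or on different sides. In all 8 libraries, 121 tiles (5.22%) stayed in the band. The mean of passages 27 and 28 was under 5% in 390 tiles (16.8%), between 5 and 20% in 665, between 20 and 40% in 681, between 40 and 60% in 525 and at 60% or more in 56. The end levels formed a continuum with its highest point near 0.

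The kept share differed between settings. It was 8.62% among the 650 tiles with 100 or more reads in each of passages 27 and 28, 40.7% (11 of 27) at a minimum of 20 reads per CpG, and 22.6% when the reads of both passages were pooled and judged as 1 level. The part of depth in this was not tested. Levels at passages 27 and 28 differed by an SD of 10.01 points over tiles. Tiles near an edge of the band thus moved in and out. Read counting gives 7.46 points with the CpGs of a molecule taken as independent, which makes this value too small. Tiles whose lowest early level was 40 to 42% ended at a mean of 20.8%, and those just outside, at 38 to 40%, ended at 19.8%. At the upper edge the end means were 28.8% for a highest early level of 58 to 60% and 29.6% for 60 to 62%.

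**Figure D2:**
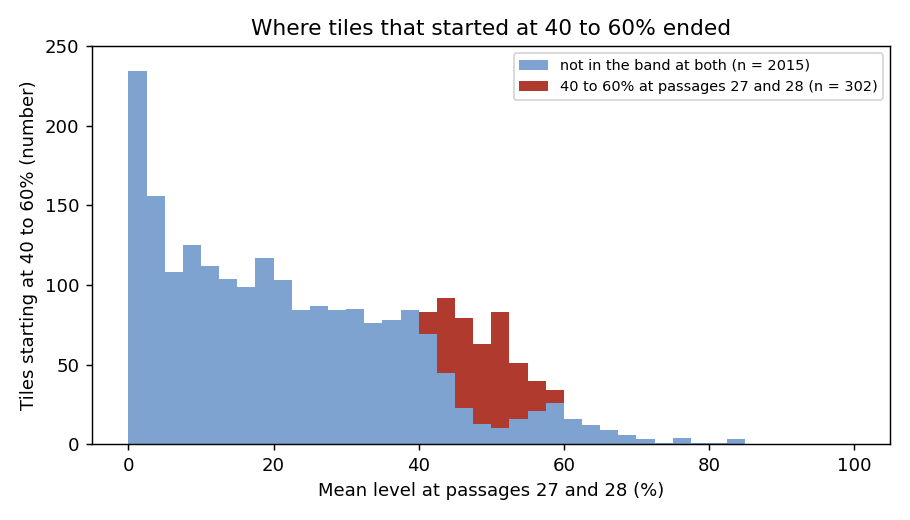
Number of tiles that started at 40 to 60% (y axis) by their mean level at passages 27 and 28 (x axis, %, bins of 2.5 points), with the 302 tiles in the band at both passages in red. The 390 tiles under 5% form the highest part of the distribution, which extends without a break through the band.

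Passages 11, 13 and 17 chose neither the tiles nor the kept group. There the 302 kept tiles had means of 51.7, 50.4 and 49.5%, and 68.5, 69.5 and 71.9% of them lay in the band. The other 2015 tiles had means of 41.97, 41.8 and 35.9%, with 50.6, 45.4 and 35.1% in the band. The tiles that ended in the band were thus higher on average at passage 11 already, while both groups started at similar levels, 51.3% and 50.2% over passages 6 to 8.

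The decline was set against the neighbouring starting bands, chosen by the same rule. Of 2121 tiles starting at 20 to 40%, 292 (13.8%) were in their own band at both late passages. Of 7210 tiles starting at 60 to 80%, 1955 (27.1%) were. The 40 to 60% tiles retained 50.1% of their starting mean at passages 27 and 28, the lower band 39.0% and the upper band 74.5%. On the log2 scale the mean of the 40 to 60% tiles fell faster than that of the upper band, with a difference of slopes of -0.0274 ± 0.00153 per passage over passages 11 to 28 (± SE, two-sided exact permutation test over 5 libraries, p = 0.0167, adjusted over 6 differences 0.03). Against the lower band the slope on this scale was less steep by 0.0147 ± 0.00133 (exact permutation p = 0.0333, adjusted 0.0333). With a minimum of 10 reads per CpG this last difference was 0.0024 (exact permutation p = 0.183), and in tiles of 5 or more kept CpGs it was 0.00313 (exact permutation p = 0.15), so it did not hold up there. The direction depends on the scale. In points per passage the slopes were -1.15 for the 40 to 60% tiles, -0.745 for the lower band and -0.948 for the upper band. In points the 40 to 60% tiles thus fell faster than both, and differences in points were not tested.

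Tested tile by tile with a quasi-binomial trend over passages 11 to 28, 1069 of 2314 tested tiles (46.2%) were called as losses (adjusted p under 0.05 and a fitted fall of at least 10 points), against 23.8% of all 72839 tiles tested. Their median fitted change was -34.6 points. In the neighbouring bands, losses were called in 894 of 2060 tested tiles starting at 20 to 40% (43.4%) and in 27.9% of those at 60 to 80%. A high share of losses was thus shared with the lower band. Among the 40 to 60% tiles gains were called in 18 (0.778%, against 0.416% of all tiles). Over all 2314 tiles the median fitted change was -19.8 points, beside -8.11 over every tile tested, and it was below 0 in 2007. At a minimum of 20 reads per CpG the order turned, with losses in 3 of 27 tiles (11.1%) against 16.6% of all. Loss calls fell to 711 without the library of passage 28. Gain calls fell to 10 without passage 13 and to 8 without passage 27 or without passage 28.

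The tiles differed in how their CpGs were arranged at the start. Over the pooled reads of passages 6 to 8, 68.1% of the 12805 CpGs lay between 20 and 80%, 2104 were high (80% or more) and 1975 were low (20% or less). A high and a low CpG occurred together in 996 tiles (43.0%), here called mosaic tiles, whatever the distance between the CpGs. Over all 2317 tiles, 4.97% of CpG pairs 1 to 25 bases apart differed by at least 60 points at the start. At 501 to 999 bases 33.9% of pairs did, so CpGs in opposite states were seldom close neighbours. In 626 tiles (27.0%) no CpG was high or low, 361 tiles held high but no low CpGs and 334 held low but no high CpGs. The mosaic tiles stayed in the band at both late passages in 178 cases (17.9%, Wilson interval 15.6 to 20.4%) and the tiles with neither in 47 (7.51%, 5.69 to 9.84%). Mean levels ended at 28.9% and 20.5%, from 50.2% and 50.3%. Tiles with high but no low CpGs were kept in 59 cases (16.3%) and went from 52.3 to 29.5%. Those with low but no high CpGs were kept in 18 cases (5.39%) and went from 48.5 to 18.5%. The larger kept shares were thus those of tiles with a high CpG, with or without a low one.

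Over passages 11 to 28 the slope was -0.999 points per passage in mosaic tiles and -1.31 in tiles with neither, a difference of 0.314 ± 0.041 (exact permutation p = 0.025, adjusted 0.03). The kept shares stood furthest apart in tiles with few measured CpGs. With 3 kept CpGs, 73 of 215 mosaic tiles (33.95%) kept the band and 22 of 280 tiles with neither did. With 6 or more, 54 of 478 (11.3%) and 8 of 111 (7.21%) did, and the difference of slopes was 0.165 (exact permutation p = 0.125). Tiles with high but no low CpGs kept the band in 30 of 124 cases with 3 kept CpGs and 14 of 108 (13.0%) with 6 or more. Those with low but no high CpGs did so in 7 of 77 and 8 of 132 cases.

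The behaviour of single CpGs followed their starting state. High CpGs in these tiles had a mean of 88.9% at passages 6 to 8 and 57.7% at passages 27 and 28. In all other tiles with under 35 listed positions, high CpGs went from 92.1% to 78.9%. High CpGs fell faster inside intermediate tiles, with a difference of slopes of -0.889 ± 0.0384 points per passage over passages 11 to 28 (exact permutation p = 0.00833, adjusted 0.03, the smallest raw p that 5 libraries allow). Middle CpGs went from 51% to 20.1%, and 60.7% of them ended at 20% or less. Their fall was steeper than that of middle CpGs elsewhere, with a difference of -0.344 ± 0.0221 points per passage (exact permutation p = 0.025, adjusted 0.03), although those started higher, at 57.4%. Low CpGs had a mean of 7.66% at the start and 2.55% at the end.

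In the 302 kept tiles, which were chosen on their late levels, high CpGs went from 89.6% to 82.7%, middle CpGs from 50.4% to 47.5% and low CpGs from 4.96% to 5.61%. Each class stayed near its starting mean.

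**Figure D3:**
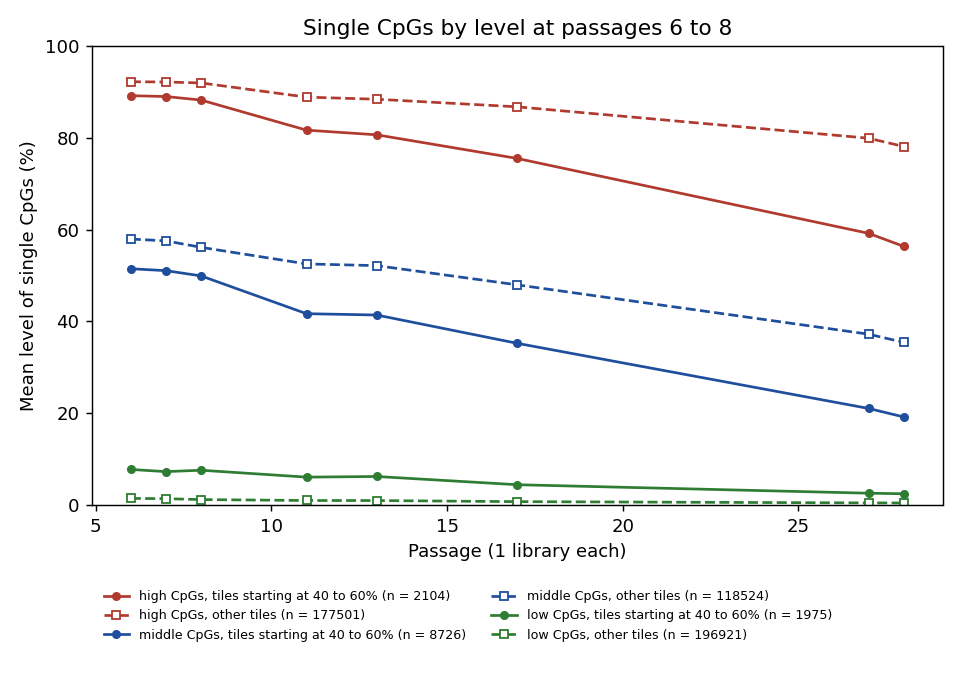
Mean level of single CpGs (y axis, %) by passage (x axis, 1 library each), sorted by their level over passages 6 to 8 into high (80% or more), middle and low (20% or less), in tiles starting at 40 to 60% (filled points, solid lines) and in other tiles (open squares, dashed lines). High CpGs ended at 56.3% at passage 28 inside these tiles and at 78.1% in other tiles.

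Single CpGs of a tile mostly fell together in direction but not in size. Between the pooled early and pooled late reads, 10782 of 12805 CpGs (84.2%) were lower, and all CpGs were lower in 1313 tiles (56.7%). In the neighbouring bands that held in 42.4% (20 to 40%) and 40.9% (60 to 80%) of tiles. Every CpG was lower by at least 10 points in 822 tiles (35.5%), and 338 tiles (14.6%) held a CpG that was higher by at least 10. Within a tile the change had a median SD over CpGs of 16.1 points. Of the variance of single CpG changes, 39.1% lay between tiles. The SD was 15.5 points between tiles and 19.3 within, and read counting alone gives an SD of 8.93 points. The share of variance between tiles was 57.3% in tiles with no high or low CpG and 33.4% in mosaic tiles. The sorting used the passages from which the change is measured, and a low CpG has little room to fall. Part of this contrast is therefore set by the sorting. The share was 18.1% for the 20 to 40% band and 56.4% for the 60 to 80% band.

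The likeness of 2 CpGs fell with their distance. Across pairs within tiles, Pearson's r of the changes was 0.708 for CpGs 1 to 25 bases apart (8345 pairs), 0.52 at 26 to 50 bases, 0.383 at 51 to 100, 0.325 at 101 to 200, 0.277 at 201 to 500 and 0.183 at 501 to 999. The median difference of the changes went from 11.3 points in the closest pairs to 21.1 points in the farthest. Pairs of a tile are not independent, and close CpGs are often read on the same molecules. Of the closest pairs, 79.4% were listed on the same strand at passage 6, and whether a shared read gives their likeness was not tested.

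**Figure D4:**
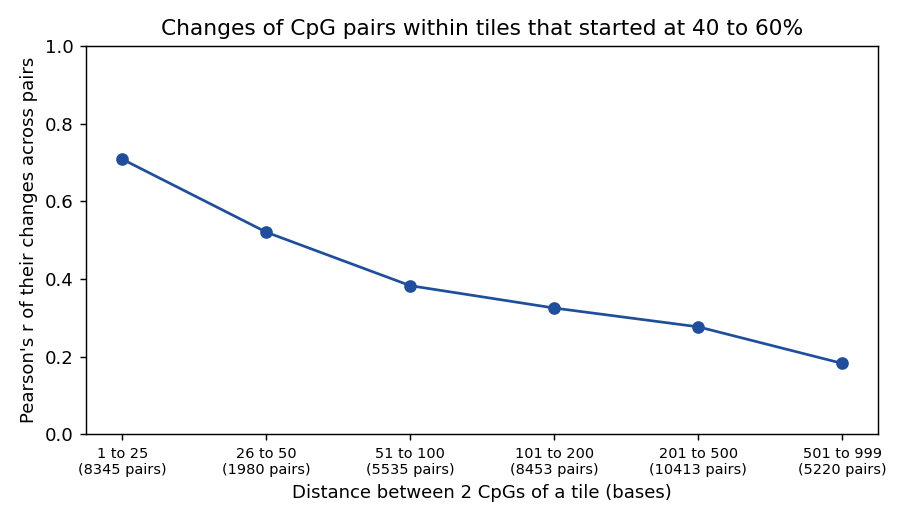
Pearson's r of the changes of 2 CpGs of a tile between passages 6 to 8 and passages 27 and 28 (y axis), across pairs sorted by the distance between them (x axis, bases, with the number of pairs). The value falls from 0.708 at 1 to 25 bases to 0.183 at 501 to 999 bases. The start levels of the pairs, from the passages that chose the tiles, also differed more with distance.

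A test of each tile asked whether its CpGs differed in their trend over passages 11 to 28. It called 93 of 1850 tiles (5.03%), close to the 3.91% of 48881 tiles called in all. In the same F test 386 (20.9%) had an unadjusted p under 0.05, near the 17.4% of all tiles. The count of called tiles rested on single libraries. Without passage 13 it was 9 (0.529%, against 0.279% of all tiles) and without passage 17 it was 28 (1.61% against 0.872%). Without passage 27 it was 20 (1.13% against 2.13%) and without passage 28 it was 19 (1.08% against 1.42%), below the share of all tiles in both cases. Mosaic tiles of 5 or more CpGs were also read along their length. Of 629, 269 (42.8%) crossed 50% only once from 1 end to the other at the start, so that the methylated and unmethylated CpGs lay on opposite sides of a single boundary. That was so in 40 of 75 kept tiles (53.3%) and in 229 of 554 others (41.3%).

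By CpG density, tiles with under 10 listed positions ended at a mean of 27.8% with 193 of 1313 kept (14.7%), those with 10 to 19 at 21.9% with 80 of 774 (10.3%), and those with 20 to 34 at 21.7% with 29 of 230 (12.6%). The densest group fell faster than the sparsest, with a difference of -0.262 ± 0.0199 points per passage (exact permutation p = 0.0167, adjusted 0.03). With at least 10 reads per CpG that difference was -0.0148 (exact permutation p = 0.817), and with at least 5 kept CpGs it was -0.0758 (exact permutation p = 0.075).

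Among the tiles in the band in all 8 libraries, the rule named the 6 with the most kept CpGs, 3 of which lie within 5 megabases of the widest stretch without listed CpGs on their chromosome. The largest number, 23, was in chr9:69065001-69066000, whose level was 53.6, 49.8, 57.4, 51.7, 59.1, 52.2, 56.5 and 53.2% from passage 6 to passage 28. Its CpGs ran from 0 to 72.3% at the start and from 0 to 75.4% at the end, with only 7 of 23 lower. The next, chr2:91776001-91777000 with 21 CpGs, read 51.9, 46.2, 54.6, 55.9, 48.5, 54.9, 53.7 and 48.9% in the same order. Here each CpG kept a level of its own, from 16.2 to 92.0% at the start and from 19.5 to 98.8% at the end, and changes of single CpGs ran from -7.82 to 7.06 points. That tile had 59.0 reads per CpG and library, beside a median of 15.4 over the 2317 tiles. Also named by the rule were chr3:75707001-75708000, chr19:525001-526000 and chr1:148902001-148903000, with late means of 48.2, 47.4 and 55.1%. The chromosome 1 tile stayed in the band yet was called as a gain of 12.5 points (adjusted p = 0.0428) after a low of 40.9% at passage 13, and the call was lost with any library but that of passage 11 left out (adjusted p from 0.0825 to 0.203). The chromosome 19 tile, 5760 bases before the start of CDC34, an enzyme of ubiquitin transfer, is a mosaic with 7 CpGs at 63.7% or more on 1 side and 8 at 4.3% or less on the other. None of its CpGs rose: 5 high CpGs went from 89.4 to 74.0% on average and 2 middle CpGs from 66.2 to 53.4%. The 8 low CpGs took 43.6% of its reads at the start and 32.1% at the end, and its mean over CpGs went from 38.9 to 31.8% while the level over summed reads went from 47.7 to 47.4%.

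Position went with the kept band. Of the 137 tiles within 5 megabases of such a stretch, which on most human chromosomes lies at the centromere, 34 (24.8%) were kept, against 268 of 2180 farther away (12.3%). Such tiles made up 11.3% of the kept, 19.01% of the 121 tiles in the band in all 8 libraries, and 6.81% of all eligible tiles. Of the 11 tiles with over 50 reads per CpG and library, 5 were kept. Whether reads from similar copies of a sequence were placed together in such tiles was not tested. Tiles next to a dense tile of 35 or more listed positions were kept in 29 of 114 cases (25.4%), and the others in 273 of 2203 (12.4%). These shares carry no test.

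Promoters were located by CpG spacing for 9373 genes, none of them on chromosome 8. Of the 2239 tiles on chromosomes searched, 4.06% lay within 1000 bases of a located gene start, beside 8.63% of all eligible tiles. The share was 6.07% for tiles starting at 20 to 40% and 1.86% for those at 60 to 80%. Among the 40 to 60% tiles, kept tiles lay that near in 8.56% of cases (25 of 292) and the others in 3.39% (66 of 1947). A located promoter was overlapped by 33 tiles, of which 10 were kept and 20 were mosaics. A kept CpG lay within the promoter itself (250 bases before the gene start to 50 after it) in 23 of the 33 and in 5 of the 10, so the levels below are those of tiles. The tiles described next were chosen from these after their values were seen.

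GTF3C3 encodes a subunit of a transcription factor for RNA polymerase III. Its tile, chr2:197664001-197665000, holds the gene start and read 54.2, 51.4, 46.4, 51.5, 48.6, 48.9, 48.1 and 50% from passage 6 to passage 28. The steady level is an average of 3 CpGs that had no methylated read at the start or the end and 5 CpGs at 67.9% or more at the start and between 72.7 and 91.7% at the end. The same arrangement held at ZNF598, a ubiquitin ligase that acts on collided ribosomes, with 6 CpGs at 0 and 5 at 56.7% or more in chr16:2060001-2061000, and at FRS2, an adaptor of growth factor receptors, in chr12:69863001-69864000. Late means there were 44.7% and 48.1%. Kept tiles at RNF41, TJP3, SLC44A2 and MLXIPL were also mosaics, and of these only the TJP3 promoter held kept CpGs, 3 in number, with means of 4% at the start and 4.55% at the end.

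The CNTLN tile was of the other kind. It lies at chr9:17134001-17135000, 38 bases before the start, and read 46.1, 45.2, 41.3, 31.3, 39.7, 36.6, 48.7 and 40.7% from passage 6 to passage 28, low in the middle passages and without a called trend (fitted change 10.5 points, adjusted p = 0.208). All 15 CpGs lay between 20 and 80% at passages 6 to 8 and at passages 27 and 28. Several neighbouring CpGs of this tile share the same counts, so they are not separate measurements. MYH14, a non-muscle myosin, had a kept tile of the same kind, with no kept CpG in the promoter, in chr19:50706001-50707000, with levels of 44.4, 55.7, 55.6, 47.6, 59.0, 55.1, 60 and 50%.

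**Figure D5:**
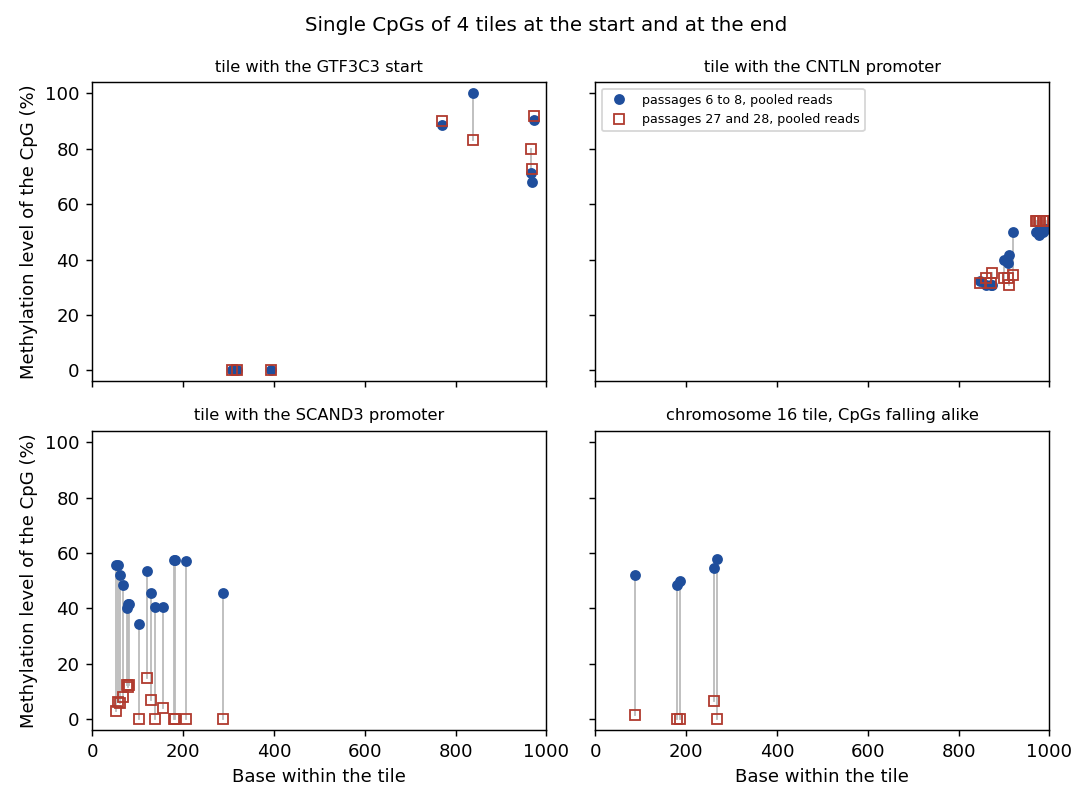
Level of single CpGs (y axis, %) by base within the tile (x axis) over pooled reads of passages 6 to 8 (filled points) and of passages 27 and 28 (open squares), in 4 tiles. The GTF3C3 tile kept a boundary between CpGs at 0 and CpGs at 67.9% or more, the CNTLN tile kept intermediate CpGs, and in the SCAND3 and chromosome 16 tiles all CpGs fell to 15% or less.

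At SCAND3 all measured CpGs of the promoter fell. Its tile, chr6:28584001-28585000, read 46.8, 50.7, 48.9, 30.5, 45.8, 35.03, 9.68 and 0.429% from passage 6 to passage 28. The fitted change was -39.9 points (adjusted p = 0.000355), and all 16 kept CpGs were lower. Of these, 15 lie in the 250 bases shown above, and close CpGs are often read on the same molecules. They may not be separate measurements. The LOC105375131 tile, chr7:4174001-4175000, read 42.2, 53.2, 40.4, 43.2, 37.1, 28.0, 0 and 0%. Of its 234 late reads, summed over 7 CpGs, 0 were methylated. That allows up to 1.28% if the reads are independent, and more where CpGs share molecules. SLC16A3, in chr17:80192001-80193000, read 40.8, 50, 59.6, 31.5, 17.0, 23.5, 12.9 and 4.58%. A further loss was called at SOHLH1, a transcription factor of germ cells, whose tile ended at 17.6%, and the 5 kept CpGs in its promoter went from a mean of 65.2% to 22.98%. The C5orf52 tile, chr5:157098001-157099000, was the 1 tile of the 33 called as a gain (30.3 points over passages 11 to 28, adjusted p = 0.0471). It read 55.8, 56.4 and 44.3% at passages 6 to 8, 23.2% at passage 17 and 66.04 and 63.8% at passages 27 and 28, and none of its kept CpGs lies in the promoter itself.

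Of the 1181 tiles with 5 or more kept CpGs, 20 had no methylated read at passages 27 and 28. The rule named 5 of these, which are tied with the rest, namely chr10:77021001-77022000, chr10:114059001-114060000, chr13:114542001-114543000, chr16:29830001-29831000 and chr16:87590001-87591000. The first read 53.6, 51.6, 40, 44.7, 25.8, 27.7, 0 and 0% in order of passage. For it 0 of 145 late reads, summed over 7 CpGs, allow up to 2.07% if they are independent, and more where CpGs share molecules. Its CpGs started anywhere from 20 to 86.0%, so equal end levels came from unequal falls. In all 5 tiles the level at passage 17 was still between 15.9 and 31.7%.

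Few tiles rose. The highest late mean, 83.5%, was in chr4:6311001-6312000, within the length of PPP2R2C, a regulatory subunit of a serine/threonine phosphatase. It read 56.5, 48.2, 44.8, 47.6, 26.3, 39.3, 95.1 and 71.9% from passage 6 to passage 28, a fitted gain of 53.4 points (adjusted p = 0.00222), and 6 of its 7 CpGs were not lower. The tile just before it, chr4:6310001-6311000, read 85.0 and 76.1% at passages 27 and 28, with no called trend (adjusted p = 0.405). A fit of all 8 libraries, including those that chose the tile, called it as a gain of 21.2 points (adjusted p = 0.035). In chr1:3195001-3196000 a gain of 40.7 points was called (adjusted p = 0.0104), and the call was lost without passage 13 (adjusted p = 0.101), without passage 27 (0.0674) or without passage 28 (0.135). With all 8 libraries in the fit the gain was 13.9 points (adjusted p = 0.408), and the mean of the tile was 57.0% at passages 6 to 8 and 73.0% at passages 27 and 28. In chr9:45193001-45194000 the level reached 74.2% at passage 28 with no called trend (adjusted p = 0.639). In chr4:6311001-6312000 and in chr1:3195001-3196000 the level at passage 13 was the lowest of the 8.

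The tiles with the smallest spread of changes and a called loss show CpGs falling in step. In chr16:89245001-89246000 the level was 55.3, 52.9, 46.2, 41.03, 37.1, 17.5, 2.02 and 0.746% from passage 6 to passage 28. Its 5 CpGs lay between 48.3 and 57.8% at the start and between 0 and 6.45% at the end, and their changes had an SD of 3.99 points. The same held, with an SD of 4.68 and 4.71 points, in chr7:145716001-145717000 and chr5:136386001-136387000, whose late means were 12.1 and 18.4%. Without the library of passage 27 the calls of both these tiles were lost (adjusted p = 0.104 and 0.0607), and the chromosome 7 call also without passage 11, 17 or 28 (0.233, 0.0565 and 0.0716).

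The opposite case is a tile whose CpGs parted. In chr19:1674001-1675000 the level was 41.2, 55.9, 49.5, 40.2, 52.4, 41.8, 28.5 and 39.9%, while its 9 CpGs differed in trend (adjusted p = 0.000476). Of the 9, 1 CpG went from 60 to 0%, whereas another went from 53.6 to 70%. In chr8:144545001-144546000 (adjusted p = 0.00129) the level was 51.7, 51.7, 52.1, 47.2, 25.8, 12.2, 7.57 and 5.43%, and 4 high CpGs went from 87.3 to 13.3% on average while 1 middle CpG kept 66.7%. In chr9:139658001-139659000 (adjusted p = 0.00129) 3 high CpGs ended at 74.0, 85.7 and 2.08%, and of 5 middle CpGs 1 ended at 42.9% and the others at 5% or less. In chr9:68413001-68414000, in the band in all 8 libraries with 57.0 reads per CpG and library, CpGs moved by between -23.5 and 17.3 points while the tile mean went from 52.3 to 47.2% (adjusted p for a difference between CpGs 0.00158).

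Genes on a list of imprinted genes were also looked at. Of 59 listed imprinted genes 23 had a located start, and 4 of the tiles overlapped the length of 2 of them, TP73, a relative of the tumour suppressor p53, and ANO1, a chloride channel. They lie 19921 bases or more after the start of the gene. None of the 4 was kept, and with a kept share of 13.0% among all the tiles so small a number shows no difference. The TP73 tile chr1:3621001-3622000 read 51.6, 49.1, 45.9, 24.5, 25, 14.1, 0.667 and 0% from passage 6 to passage 28, and the other, chr1:3589001-3590000, had a late mean of 3.65%. Both ANO1 tiles, chr11:69911001-69912000 and chr11:69959001-69960000, ended at 15.3 and 13.5%.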

How the data were processed

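Reduced representation bisulfite libraries of HUES64 cells at 8 passages were analysed, 1 library each. The deposited files list CpG positions in hg19, per the submitters' processing notes. Methylated and total reads per CpG were taken from column 4 as the authors deposited them. The deposited score in column 5 is their ratio times 1000 and was not used. Which aligner and caller were used, and whether duplicates were removed, is not given in the sources used here. Duplicates would make intervals too narrow, and intervals and limits cover counting error only. Counting SDs and limits of tiles treat reads at different CpGs as independent, so CpGs read on the same molecules make them too small.

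Library totals ranged from 19898423 reads over CpGs at passage 11 to 44599588 at passage 6. The 5-read minimum left 886094 autosomal CpGs. Reads were summed per tile. Trends of mean levels were fitted by least squares on passage, and differences of slopes were tested by two-sided exact permutation of the passages over the 5 libraries the rule did not use (120 orders, smallest p 0.00833), with Benjamini-Hochberg adjustment over 6 differences. Each tile with at least 10 methylated and 10 unmethylated reads was fitted by quasi-binomial logistic regression, with the dispersion moderated by limma 3.58.1 (squeezeVar, floor 1), a two-sided F test and adjustment over all tiles tested. Differences between CpGs of a tile were tested with a slope per CpG against a common slope, over CpGs with 5 reads of each state. Intervals are 95% Wilson intervals, and a count of 0 is given a limit of 3 reads. The tile trend and the fit of CpG differences were tested on simulated data.

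No hg19 annotation was used here. RefSeq promoter sequences (GRCh38.p14) were placed on the listed positions where at least 10 listed CpGs all fell on CpGs of the sequence at 1 place on the gene's chromosome. Of 19809 searched, 10864 were placed, and 4 were placed on another chromosome searched as a check. "Within the length" of a gene means its RefSeq length counted from that start. This step was chosen after seeing the data.

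Tiles were named by rule: the 6 with the most CpGs among those in the band in all 8 libraries; among tiles of 5 or more CpGs, the 5 with the lowest and the 4 with the highest late mean; the 4 with the strongest difference between CpGs; the 3 losses with the most uniform change; and those overlapping listed imprinted genes. The tiles, bands and lists were chosen with earlier results of these data known. Alternatives covered coverage limits, CpGs per tile, bands, the level, the libraries and the test. Python 3.11.15 and R 4.3.3 were used.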

Additional observations from a re-analysis of the deposited data

How the results depend on the processing

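The mean level of the tiles fell under every alternative run, with slopes between -1.22 and -1.11 points per passage with the library of 1 passage left out and of -0.369 at 20 reads per CpG. With 4 libraries few tests can pass, so leaving 1 out mostly ended the calls of slope differences while the values stayed close: 0.0136 to 0.0159 against the 20 to 40% band, -0.0292 to -0.0263 against the 60 to 80% band, -0.282 to -0.24 for density, 0.284 to 0.363 for mosaic tiles against tiles with neither, and -0.936 to -0.871 for high CpGs. The kept share was 11.2% (52 of 463) at a minimum of 10 reads per CpG, 40.7% (11 of 27) at 20 reads, 10.4% with 5 or more CpGs, 4.65% for a starting band of 45 to 55%, judged by that band, and 31.99% for 30 to 70%, 30.7% for a late band of 30 to 70%, 22.6% with late reads pooled, 16.2% with the mean over CpGs as the level and 8.62% in tiles of 100 or more late reads. The last setting, and those that leave out tiles by position or coverage or bear on mosaic tiles and high CpGs, were added after seeing the data.

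At 10 reads the difference from the 20 to 40% band was 0.0024 and that for density -0.0148. At 20 reads, with 27 tiles, the differences were 0.00466 and -0.00153 from the lower and upper bands, -0.386 for density, 0.227 for mosaic tiles and -0.382 for high CpGs. With 5 or more CpGs the first was 0.00313 and density -0.0758, and with 6 or more the mosaic difference was 0.165. Losses numbered 261 of 463 at 10 reads (56.4%, against 36.6% of all tiles) and 3 at 20 reads (11.1% against 16.6%). They numbered 693 with 5 or more CpGs (58.7% against 30.6%), and 183 and 4210 for the narrow and wide bands (47.3 and 43.6% against 23.8%). In tiles of 100 or more late reads they were 457 of 650 (70.3%, against 23.8% of all tiles at any depth). With 1 library left out they were 711 (30.7% against 14.5%) to 989 (42.8% against 21.2%). Gains numbered 6 at 10 reads (1.30% of the tiles tested) and 0 at 20 reads (by the same limma-moderated test, with 8 tiles at an unadjusted p under 0.05 in either direction). They numbered 9 with 5 or more CpGs (0.762%), and 5 and 57 for the narrow and wide bands (1.29 and 0.590%, against 0.416% of all tiles). With all 8 libraries they were 7 (0.302%), by limma on logit levels 2 (0.0864%) and in tiles of 100 or more late reads 5 (0.769%). With 1 library left out they were 8 to 24 (0.346 to 1.04%). The share of gains over all tiles is given for the main fit only. Tiles whose CpGs differed numbered 15 of 371 at 10 reads (4.04%, against 3.84% of all tiles) and 2 of 24 at 20 reads (8.33% against 2.28%). They numbered 18 of 324 for the narrow band and 324 of 7701 for the wide band (5.56 and 4.21% against 3.91%). With all 8 libraries they were 152 of 2135 (7.12% against 4.72%), and with 1 left out 9 (0.529% against 0.279%) to 101 (5.97% against 4.03%). The share of variance between tiles was 54.1% at 20 reads, 28.7% for changes from passages 11 and 13, and 22.4% for CpGs at least 100 bases apart. Several of these settings test fewer tiles; for the rest the cause was not tested. Of the alternatives for tiles named by rule, 115 left the verdict as it was, 18 lost a call and 3 gained one. No paired analysis was possible because no passage was sequenced more than once.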

Other observations

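Tiles adjoining the intermediate ones were followed where they had 3 or more kept CpGs themselves. The 129 such neighbours of kept tiles had a mean level of 42.2% at passages 6 to 8 and 34.4% at passages 27 and 28. The 1183 neighbours of the other tiles had means of 46.9% and 24.4%.

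Kept shares differed between chromosomes without a test. They were highest on chromosome 13, with 9 of 37 tiles (24.3%), and chromosome 12, with 18 of 78 (23.1%), and lowest on chromosome 20, with 3 of 81 (3.70%).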
